A study of Rattus norvegicus with 12 samples.

Results

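The 7 genes described here encode parts of the machinery that moves sodium, potassium, calcium and chloride ions across the membranes of brain cells. They are Atp1b1 and Atp1b2, Atp2a2, Atp2b1 and Atp2b2, Slc8a1 and Slc12a5. They were chosen by symbol, and all 7 were found among the 18800 gene symbols of the count table and passed the filter on low counts that left 15487 genes for testing. The 5 ATPase genes encode pumps or pump subunits that use ATP. Slc8a1 encodes an exchanger and Slc12a5 a cotransporter, which are driven by ion gradients and are not pumps in the strict sense.

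Brain tissue of Sprague-Dawley rats was profiled by RNA sequencing in 3 groups. Electroacupuncture rats had MCAO/R (occlusion of the middle cerebral artery followed by reperfusion, a model of ischemic stroke), were bundled, that is restrained, and received needle stimulation with current at the Tianfu, Chize, Kongzui and Taiyuan acupoints. Model rats had MCAO/R and were bundled without electroacupuncture. Control rats were bundled to the same degree without MCAO/R in their labels, although their columns in the table are named as sham-operated. All groups therefore share the restraint. The labels give neither the brain region, the side, the time after reperfusion nor the age, and 4 samples are labelled in each group. The table holds 4 columns for electroacupuncture, 4 for the model and 3 for the controls. In 3 pairs of columns within a group the counts differed by only 1.34 to 1.4 times the sampling variance, against 4.75 to 26.5 times in the 12 other pairs within a group, so each of these pairs was summed and counted as 1 sample. This left electroacupuncture A, B and C (n = 3), model A and B (n = 2) and control A, B and C (n = 3), where the letters only name samples. Total counts per sample ranged from 9335913 to 23835724.

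The sodium pump exchanges intracellular sodium for extracellular potassium at the cost of ATP and maintains the gradients on which excitability and most secondary transport depend. Each pump joins a catalytic alpha subunit to a beta subunit that is needed for its assembly and delivery to the membrane. Calcium is removed from the cytosol by pumps of the endoplasmic reticulum and of the plasma membrane and by exchange against sodium. The neuronal potassium-chloride cotransporter keeps intracellular chloride low, which makes GABA inhibitory in mature neurons. Loss of ATP in ischemia stops the pumps, and the resulting ionic collapse is a textbook step of early stroke injury.

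None of the 7 genes passed the test in any of the 3 comparisons. Atp1b1 was the member whose model samples all lay below the controls, and for the other 6 the samples of every pair of groups overlapped. Values are given as CPM (counts scaled to a common library total, adjusted between libraries by TMM), and tests are edgeR quasi-likelihood F tests, two-sided, with Benjamini-Hochberg adjustment over all 15487 genes and a threshold of 0.05. In bulk tissue, fewer cells of a type and less RNA per cell cannot be told apart. The members' counts ran from 243 to 58387 per sample, and between the columns summed into 1 sample members differed by at most 1.1-fold. For Atp1b2 and Slc8a1 the 2 model samples differed by no more than 1.09-fold and 1.12-fold, which is about the size of that difference between summed columns.

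Atp1b1 encodes the beta1 subunit of the sodium pump, the widespread beta subunit of neurons. It measured 697, 2482 and 2646 CPM in electroacupuncture A, B and C, 1239.9 and 1764 CPM in model samples A and B, and 2891, 2658 and 2475 CPM in the control samples A, B and C. Both model samples lay below every control, electroacupuncture B and C lay near the controls, and electroacupuncture A lay below all other samples. Atp1b1 averaged 1502 ± 371 CPM in the model (SD, n = 2) and 2674 ± 209 CPM in controls (SD, n = 3), a log2 fold change of -0.83 (SE 0.52, 95% interval -2.05 to 0.38, edgeR adjusted p = 0.506). It was 1 of 7 members whose model and control samples did not overlap, and 19.6% of all tested genes lay below the controls in this way. With electroacupuncture the mean was 1942 ± 1081 CPM (SD, n = 3), and the log2 fold change against the model was 0.37 (SE 0.51, 95% interval -0.83 to 1.57, edgeR adjusted p = 0.821), which ran from 0.082 without electroacupuncture C to 0.77 without electroacupuncture A. Against control it was -0.46 (SE 0.46, edgeR adjusted p = 0.844), and ran from -0.74 without electroacupuncture C to -0.06 without electroacupuncture A. None of the 11 deposited values of Atp1b1 was a whole number, so its count is a fractional estimate, for which the sources used here give no method.

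Atp1b2 encodes the beta2 subunit, also known as the adhesion molecule on glia and in rodents typical of astrocytes. It measured 528, 531 and 448 CPM in electroacupuncture A, B and C, 485 and 446 CPM in model samples A and B, and 563, 463 and 435 CPM in the control samples A, B and C. The 3 groups overlapped throughout, and the highest and lowest samples, both controls, were 1.3-fold apart. Its standard deviation over the 8 samples was 0.14 on the log2 scale, lower than in all but 6.88% of tested genes, against a median of 0.33 over all of them. The log2 fold change was -0.07 for model against control (95% interval -0.49 to 0.36) and 0.11 for electroacupuncture against model (95% interval -0.32 to 0.54). With total counts in place of TMM the first of these became 0.04, where that scaling raised the median of all genes by 0.11.

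**Figure D1:**
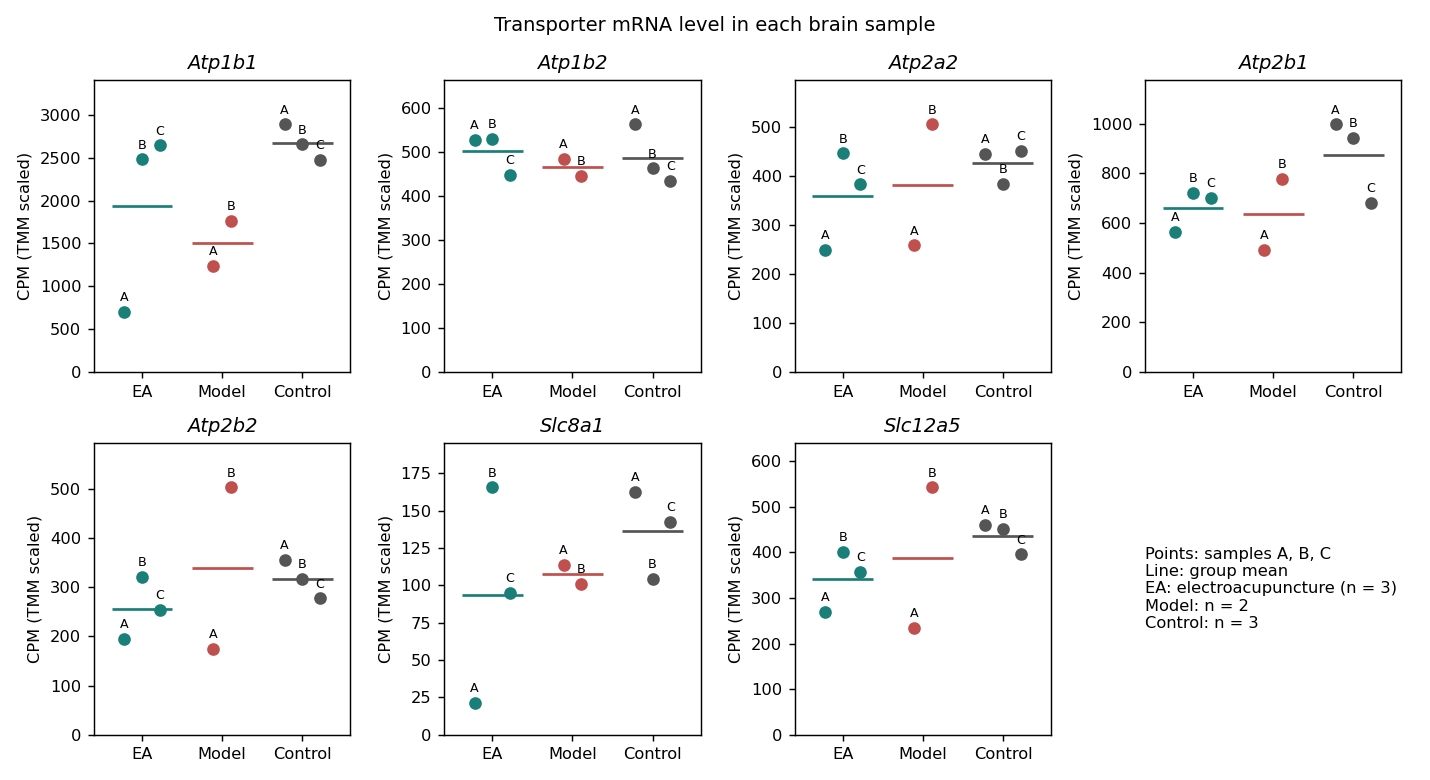
Level of each of the 7 transporter genes in CPM on a linear axis from 0, with 1 point per sample, the sample letter above it and the group mean as a line (EA is electroacupuncture). Model A and electroacupuncture A are the lowest samples for 5 of the 7 genes, and Atp1b2 stays between 435 and 563 CPM in all 8 samples.

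Atp2a2 encodes SERCA2, the pump that returns calcium to the endoplasmic reticulum. It measured 249, 446 and 383 CPM in electroacupuncture A, B and C, 258 and 505 CPM in model samples A and B, and 444, 384 and 451 CPM in controls. Model A and electroacupuncture A were low and model B was the highest of all samples, so the model samples lay on either side of the controls. The log2 fold change was -0.16 for model against control (SE 0.34, 95% interval -0.94 to 0.62, edgeR adjusted p = 0.858) and became 0.24 without model A. For electroacupuncture against model it was -0.09 (SE 0.34, edgeR adjusted p = 0.940), which became -0.49 without model A and 0.48 without model B.

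Atp2b1 encodes PMCA1, a calcium pump of the plasma membrane found in most cells. It measured 566, 720.4 and 701 CPM in electroacupuncture A, B and C, 492 and 779 CPM in model samples A and B, and 998, 944 and 679.7 CPM in controls. Control A and B were the highest samples and control C lay within the range of the other groups. Its log2 fold change was -0.46 for model against control (SE 0.27, 95% interval -1.09 to 0.18, edgeR adjusted p = 0.485), 0.06 for electroacupuncture against model (SE 0.27, 95% interval -0.57 to 0.69, edgeR adjusted p = 0.951) and -0.40 for electroacupuncture against control (SE 0.24, edgeR adjusted p = 0.843).

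Atp2b2 encodes PMCA2, a fast calcium pump of the plasma membrane that is enriched in neurons. It measured 196, 321 and 253 CPM in electroacupuncture A, B and C, 175 and 503 CPM in model samples A and B, and 356, 316 and 277 CPM in controls. The lowest and the highest of all samples were both model samples, 2.88-fold apart, while the controls differed by 1.28-fold. For model against control the log2 fold change was 0.10 (SE 0.42, 95% interval -0.87 to 1.07, edgeR adjusted p = 0.934), and it was -0.86 without model B. With electroacupuncture against the model it was -0.40 (SE 0.41, edgeR adjusted p = 0.745), and 0.56 without model B.

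Slc12a5 encodes KCC2, the potassium-chloride cotransporter that in the brain is restricted to neurons. It measured 269.7, 401 and 357 CPM in electroacupuncture A, B and C, 235 and 543 CPM in model samples A and B, and 460.3, 452 and 395 CPM in controls. Again model A was lowest, electroacupuncture A next and model B highest. The log2 fold change was -0.17 for model against control (SE 0.35, 95% interval -0.97 to 0.64, edgeR adjusted p = 0.856), and 0.31 without model A. For electroacupuncture against model it was -0.18 (SE 0.34, edgeR adjusted p = 0.875), and 0.55 without model B. It was -0.35 for electroacupuncture against control (SE 0.31, 95% interval -1.06 to 0.37, edgeR adjusted p = 0.843). All electroacupuncture samples but B lay below every control, and B at 401 CPM lay just above control C at 395 CPM.

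Slc8a1 encodes NCX1, an exchanger that normally takes in sodium to expel calcium and can run in reverse when sodium accumulates. It measured 21.1, 165 and 94.8 CPM in electroacupuncture A, B and C, 113 and 101 CPM in model samples A and B, and 162, 104 and 142 CPM in controls. Electroacupuncture A and B were the lowest and highest of all 8 samples, 7.85-fold apart, and the model samples lay close together near the lowest control. Its standard deviation of 0.94 on the log2 scale was the largest of the 7 genes and above that of 92.2% of tested genes. The log2 fold change was -0.35 for model against control (SE 0.68, 95% interval -1.92 to 1.23, edgeR adjusted p = 0.845) and -0.54 for electroacupuncture against control (SE 0.60, edgeR adjusted p = 0.850), which ran from -1.24 without electroacupuncture B to -0.06 without electroacupuncture A. For electroacupuncture against model it was -0.19 (SE 0.67, edgeR adjusted p = 0.936), and ran from -0.91 without electroacupuncture B to 0.29 without electroacupuncture A. Like Atp1b1, Slc8a1 had no whole number among its 11 deposited values, whereas the other 5 members had whole numbers throughout.

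Counted together, 0 of 7 members passed in the model against control, where 0.00646% of tested genes (1 of 15487) passed. In electroacupuncture against model 0 of 7 passed, beside 0% of all genes, and in electroacupuncture against control 0 of 7, again beside 0%. At an unadjusted p under 0.05, edgeR counted 0 of 7 members in each comparison, beside 13.8%, 13.5% and 3.66% of all genes in the order above. DESeq2 called 0 of 7 members in each comparison after adjustment, beside 4.96% of genes (763) for model against control, 4.48% (689) for electroacupuncture against model and 0.0065% (1) for electroacupuncture against control. At an unadjusted p under 0.05 DESeq2 also counted 0 of 7 members each time, beside 15.8%, 15% and 5.42% of genes. Electroacupuncture and control samples overlapped for all 7 members, while 5.98% of all genes lay wholly above and 4.88% wholly below control, and electroacupuncture and model samples overlapped for all 7, beside 12.9% and 11.7%. The median log2 fold change of the members was -0.17 for model against control (0.02 over all tested genes), with 6 of 7 lower in estimate. It was -0.09 for electroacupuncture against model (0.03 over all genes) with 4 of 7 lower, and -0.35 for electroacupuncture against control (0.01 over all genes) with 6 of 7 lower. The first and the last of these share the control samples, and the first and second share the model samples.

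**Figure D2:**
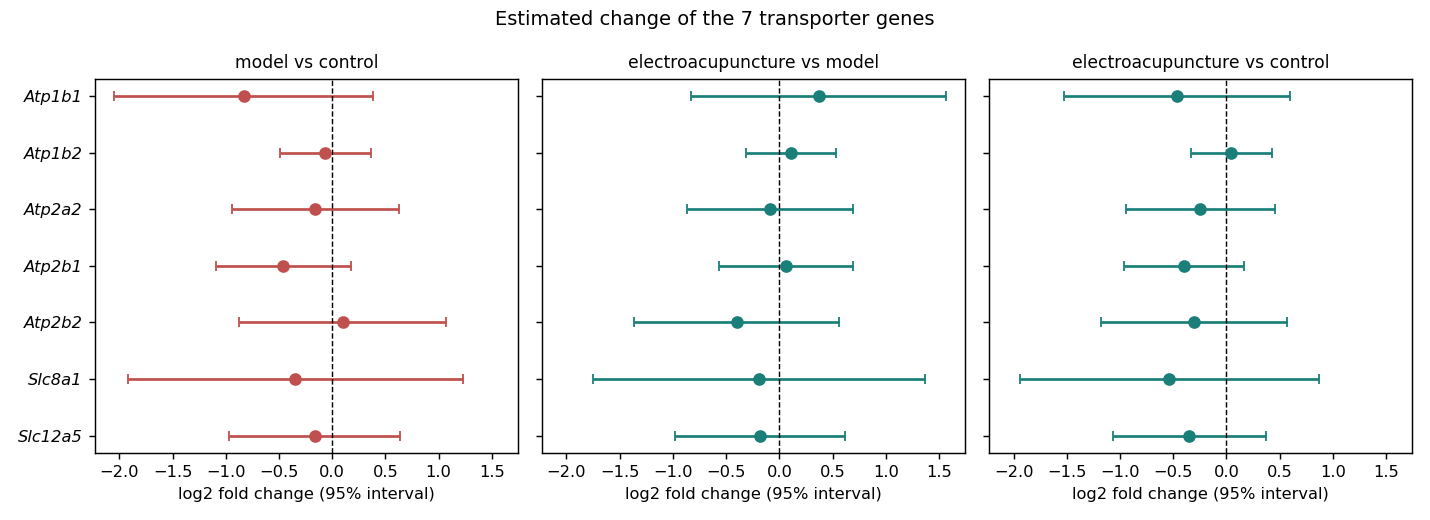
Log2 fold change of each member from the edgeR fit with its 95% interval, 1 panel per comparison, with a dashed line at 0. Every interval includes 0. The narrowest are those of Atp1b2 (-0.49 to 0.36 for model against control) and the widest those of Slc8a1 (-1.92 to 1.23).

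The intervals give the sizes that these samples leave possible. For Atp1b2 in model against control, a fold change between 0.711 and 1.28 lay inside the 95% interval. For Slc12a5 the interval ran from 0.51-fold to 1.56-fold, for Atp1b1 from 0.242-fold to 1.3-fold and for Slc8a1 from 0.264-fold to 2.35-fold. The missed threshold does not show that the groups were alike.

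Across samples the members followed a few individual samples. Model A and electroacupuncture A were the 2 lowest of 8 samples for 5 of the 7 genes, namely Atp1b1, Atp2a2, Atp2b1, Atp2b2 and Slc12a5. Model B was the highest sample for 3, namely Atp2a2, Atp2b2 and Slc12a5. Marker genes of cell types and brain regions also differed between these samples, in both directions. Averaged over the 9 general neuron markers, the log2 distance to the control average was -1.20, 0.10 and -0.05 in the electroacupuncture samples (A, B, C), and -0.66 and 0.01 in the model samples (A, B). On the same scale the 5 markers of glutamatergic neurons lay at -3.53, 0.07 and 0.02 with electroacupuncture and at -1.46 and -0.60 in the model. The 7 tested hippocampal markers lay at -2.22, -0.02 and -0.37 with electroacupuncture and at -2.78 and -2.50 in the model, so both model samples and electroacupuncture A were low, as for Atp1b1. The 9 markers of striatal medium spiny neurons lay at 4.93, 0.38 and -0.49 with electroacupuncture and at 2.29 and 0.62 in the model, and the 9 neocortical markers at 0.07, 0.58 and -0.03 with electroacupuncture and at 0.66 and 1.5 in the model. The 8 microglia markers lay at 1.83, 0.53 and 0.28 with electroacupuncture and at 1.39 and 0.56 in the model. The 7 GABAergic markers lay at 0.64, 0.13 and 0.65 with electroacupuncture and at 0.38 and 0.70 in the model. Their single genes disagreed. In electroacupuncture A, Gad2 measured 36.3 CPM and Pvalb 9.89 CPM, beside control means of 1.10 and 120 CPM. Gad2 was at 0 CPM in model A, model B, electroacupuncture B and control B. The 8 oligodendrocyte markers lay at -0.30, 0.51 and 0.26 with electroacupuncture and at -0.42 and -1.35 in the model, and the 5 tested endothelial markers at 1.48, 0.22 and -0.07 with electroacupuncture and at -0.44 and 0.40 in the model. The average over the 8 astrocyte markers kept to a narrower range, from -0.10 in model B to 0.50 in electroacupuncture A. Single genes of this list did not all do so. Gfap was lowest of all samples in model B, at 502 CPM, and highest in model A, at 2259 CPM, beside a control mean of 1435 CPM. S100b spread less, from 1383 CPM (control C) to 2547 CPM (electroacupuncture A). The part of these markers in the members' levels was not tested. All 9 neuron markers were above 0 in every sample, with summed levels of 3885 to 9049 CPM with electroacupuncture, 5969 to 10341 CPM in the model and 8024 to 8836 CPM in controls, so the labelled brain tissue carried its defining markers.

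**Figure D3:**
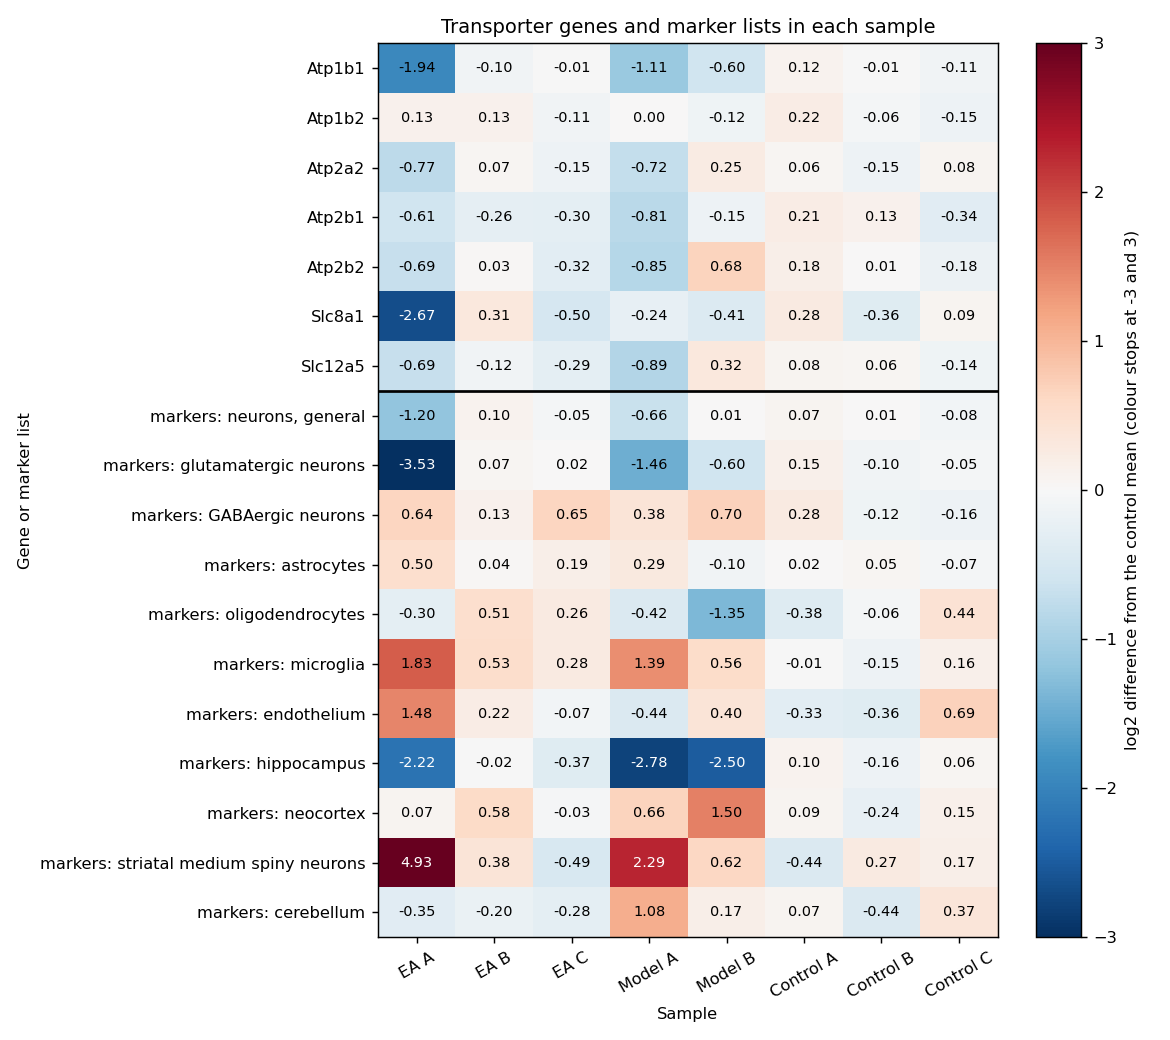
Log2 difference from the control mean for each member (above the line) and the average over each marker list (below the line), by sample, with the value printed in each cell. Electroacupuncture A and model A carry most of the low member values, beside low neuron markers (-1.20 and -0.66) and high striatal markers (4.93 and 2.29).

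With both of these samples left out, a choice made after the data were seen, 0 of 7 members passed in any comparison. The smallest adjusted p among the members was then 0.0724, for Atp2b2 in electroacupuncture against model at a log2 fold change of -0.81, where the model is the single sample B and is assumed to vary like the other groups. Atp1b1 was at -0.60 for model against control in the same fit (edgeR adjusted p = 0.079).

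Likeness of profiles was measured as the root mean square difference between centred log2 CPM values over the 8 samples, where 0 means the same pattern. Among the members, Atp2b2 and Slc12a5 were the closest pair at 0.128. Slc12a5 was the 3rd nearest of 10353 genes averaging 10 CPM or more to Atp2b2. Atp2a2 and Slc12a5 followed at 0.145, where Slc12a5 was the 78th nearest gene to Atp2a2. Next were Atp2b1 and Slc12a5 at 0.190 and Atp2a2 and Atp2b2 at 0.206. The least alike were Atp1b2 and Slc8a1 at 0.907. Outside the members, the genes nearest to Atp2b2 were Nat8l, which makes the neuronal metabolite N-acetylaspartate, at 0.0736 and Inka2 at 0.127. Nat8l measured 81.3, 137 and 118 CPM in electroacupuncture A, B and C, 73.4 and 213 CPM in model samples A and B, and 139, 126 and 121 CPM in controls, so model A was lowest and model B highest here too. Nearest to Slc12a5 were Pip5k1c, a kinase of membrane phosphoinositides, at 0.0879 and Grin1, the obligatory NMDA receptor subunit, at 0.111. Nearest to Atp2a2 were Spryd3 at 0.0559 and Cdipt, which makes phosphatidylinositol, at 0.0587, and nearest to Atp2b1 were Miga2 at 0.102 and Ajm1 at 0.102. For Atp1b1 they were Anxa11, an annexin, at 0.0745 and Ccdc177 at 0.0764, and for Atp1b2 Kdm2a, a histone demethylase, at 0.0588 and Dusp18, a phosphatase, at 0.0621. Slc8a1 had no gene as close, with Chrna7, a nicotinic acetylcholine receptor subunit, at 0.258 and Lrfn2, a synaptic adhesion protein, at 0.293. The profiles were not scaled, so this distance grows with the spread of the genes compared. Its median over the 10347 genes outside the members was 0.893 for Slc8a1 and 0.292 for Atp1b2.

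Promoter sequence is shown for the 3 members that were highest in model B (Atp2b2, Slc12a5 and Atp2a2) and for Atp1b2, which varied least. RefSeq (assembly GRCr8) held an entry for 6 of the 7 members. Each sequence is the 250 bases before the annotated start, 5′ to 3′ on the strand of the gene, and capitals mark GGGCGG or its complement CCGCCC, the core of the GC box bound by Sp1-family factors.
Atp2b2 (chr4:148763654-148763903, minus strand): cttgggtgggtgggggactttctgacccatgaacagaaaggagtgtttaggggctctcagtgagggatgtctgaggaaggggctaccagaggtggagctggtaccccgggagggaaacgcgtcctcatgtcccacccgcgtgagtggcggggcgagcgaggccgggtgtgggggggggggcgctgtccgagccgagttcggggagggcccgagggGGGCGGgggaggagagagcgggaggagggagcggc
Slc12a5 (chr3:174115583-174115832, plus strand): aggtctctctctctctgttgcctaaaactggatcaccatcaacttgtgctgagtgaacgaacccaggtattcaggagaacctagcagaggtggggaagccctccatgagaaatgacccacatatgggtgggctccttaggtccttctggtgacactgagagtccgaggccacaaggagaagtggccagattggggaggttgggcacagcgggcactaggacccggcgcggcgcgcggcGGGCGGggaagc
Atp2a2 (chr12:39733269-39733518, plus strand): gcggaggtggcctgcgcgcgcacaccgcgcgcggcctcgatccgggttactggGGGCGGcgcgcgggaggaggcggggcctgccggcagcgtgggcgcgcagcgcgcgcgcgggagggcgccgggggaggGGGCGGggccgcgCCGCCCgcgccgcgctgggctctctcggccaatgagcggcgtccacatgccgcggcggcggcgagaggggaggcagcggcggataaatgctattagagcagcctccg
Atp1b2 (chr10:54823709-54823958, minus strand): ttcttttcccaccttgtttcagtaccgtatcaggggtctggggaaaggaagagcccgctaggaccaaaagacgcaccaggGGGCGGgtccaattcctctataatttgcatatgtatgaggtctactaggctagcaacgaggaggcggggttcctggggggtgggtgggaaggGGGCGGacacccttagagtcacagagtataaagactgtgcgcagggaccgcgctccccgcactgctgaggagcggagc
The GC box letters stood at 1 place in the Atp2b2 window, 1 in Slc12a5, 3 in Atp2a2 and 2 in Atp1b2, read on both strands, and 30.5% of 33469 RefSeq promoter windows of this length hold at least 1. The letters TATAAA occurred in the Atp1b2 window and in 0 of the other 3 windows, against 12.9% of all windows. CCAAT or its complement occurred once in Slc12a5, Atp2a2 and Atp1b2 and not in Atp2b2, against 34% of all windows. The GC content was 69.2% for Atp2b2, 59.2% for Slc12a5, 80% for Atp2a2 and 58% for Atp1b2, beside a median of 51.2%. These matches describe the letters of the windows only. None of the 3 motifs contains another.

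Ratios between 2 genes of the same sample do not depend on library scaling, and 3 of them were compared in 3 comparisons (9 exact permutation tests over samples, two-sided). The smallest p that the design allows is 0.2 for comparisons with the model and 0.1 for electroacupuncture against control, so none of these tests can pass 0.05. The balance of KCC2 to NKCC1 (Slc12a2, the cotransporter that loads chloride into cells) is commonly read as the chloride set point of neurons. Here both were counted in bulk tissue, so the ratio also depends on the mixture of cells and is not a measure of neurons alone. Slc12a2 measured 89.2, 108 and 80.1 CPM with electroacupuncture, 69.2 and 55.5 CPM in the model and 64.7, 61.4 and 96.3 CPM in controls. The log2 ratio of Slc12a5 to Slc12a2 was 1.60, 1.90 and 2.15 with electroacupuncture (A, B, C), 1.76 and 3.29 in model samples A and B, and 2.83, 2.88 and 2.04 in control A, B and C. Control C stood among the electroacupuncture samples, while model B was highest and model A lay between electroacupuncture A and B. The difference was -0.70 for electroacupuncture against control (exact permutation p = 0.2, Benjamini-Hochberg adjusted 0.771), with 3 of 3 electroacupuncture samples below controls A and B, and -0.06 for model against control (exact permutation p = 1).

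The log2 ratio of Atp1b2 to Atp1b1 was -0.40, -2.23 and -2.56 with electroacupuncture (A, B, C), -1.35 and -1.98 in model samples A and B, and -2.36, -2.52 and -2.51 in controls. Both model samples exceeded all controls, and electroacupuncture A exceeded the model. The model stood 0.79 above control (exact permutation p = 0.2, the smallest the design allows, Benjamini-Hochberg adjusted 0.771). For Atp2b2 to Atp2b1 the log2 ratio was -1.53, -1.17 and -1.47 with electroacupuncture, -1.49 and -0.63 in the model and -1.49, -1.58 and -1.29 in controls. Model B alone stood apart, and the model lay 0.39 above control with an exact permutation p of 0.6.

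**Figure D4:**
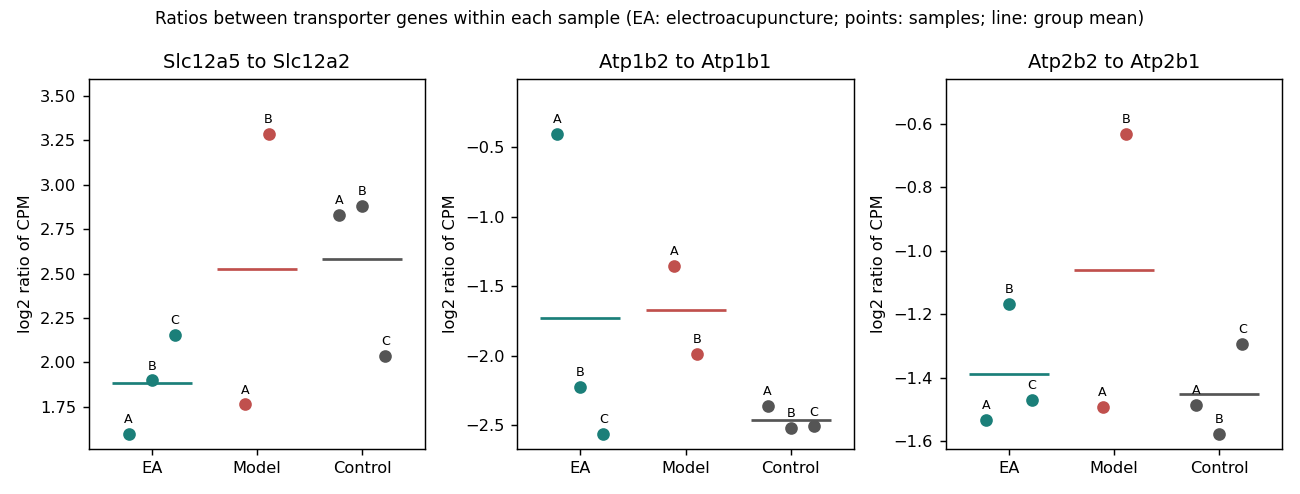
Log2 ratio of CPM between 2 transporter genes in each sample, 1 panel per ratio, with points for samples, letters for their names and a line for the group mean (EA is electroacupuncture). The ratio of Atp1b2 to Atp1b1 lies between -2.52 and -2.36 in controls and at -1.35 and -1.98 in the model.

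Other genes of ion pumps, exchangers, cotransporters and intracellular calcium release were read from a list of 70 symbols, of which 68 were in the table and 64 were tested. In model against control 0 of 64 passed in edgeR and 9 had an unadjusted p under 0.05 (13.8% of all genes did). DESeq2 called 4 of 64, namely Atp2b4, Fxyd6, Ryr3 and Wnk4, beside 4.96% of all genes. In estimate 27 were higher and 37 lower, with a median of -0.05 beside 0.02 over all genes. In electroacupuncture against model 0 of 64 passed in edgeR and 8 had an unadjusted p under 0.05 (13.5% of all genes). DESeq2 called 2 of 64, Atp2b4 and Ryr3, beside 4.48% of all genes. Of the 64, 40 were higher and 24 lower in estimate, with a median of 0.18 beside 0.03. In electroacupuncture against control 0 of 64 passed in edgeR and 0 in DESeq2, and 3 had an unadjusted p under 0.05 (3.66% of all genes). Of the 15 genes of calcium release, store refilling and mitochondrial uptake, 11 were lower in estimate in model against control (median -0.25), beside 7517 of 15487 tested genes. In electroacupuncture against model 12 were higher (median 0.21), beside 8263 of 15487, and in electroacupuncture against control 12 were lower (median -0.14), beside 7626 of 15487. Each pair of these comparisons shares 1 group of samples. The other functional groups of the list were mixed in model against control. Lower in estimate were 8 of 13 sodium pump genes, 4 of 6 of the endoplasmic reticulum and Golgi list and 1 of 2 plasma membrane calcium pumps. So were 3 of 8 sodium/calcium exchangers, 4 of 7 cation-chloride cotransporters, 3 of 6 of their kinases and 3 of 7 sodium/proton and bicarbonate transporters.

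**Figure D5:**
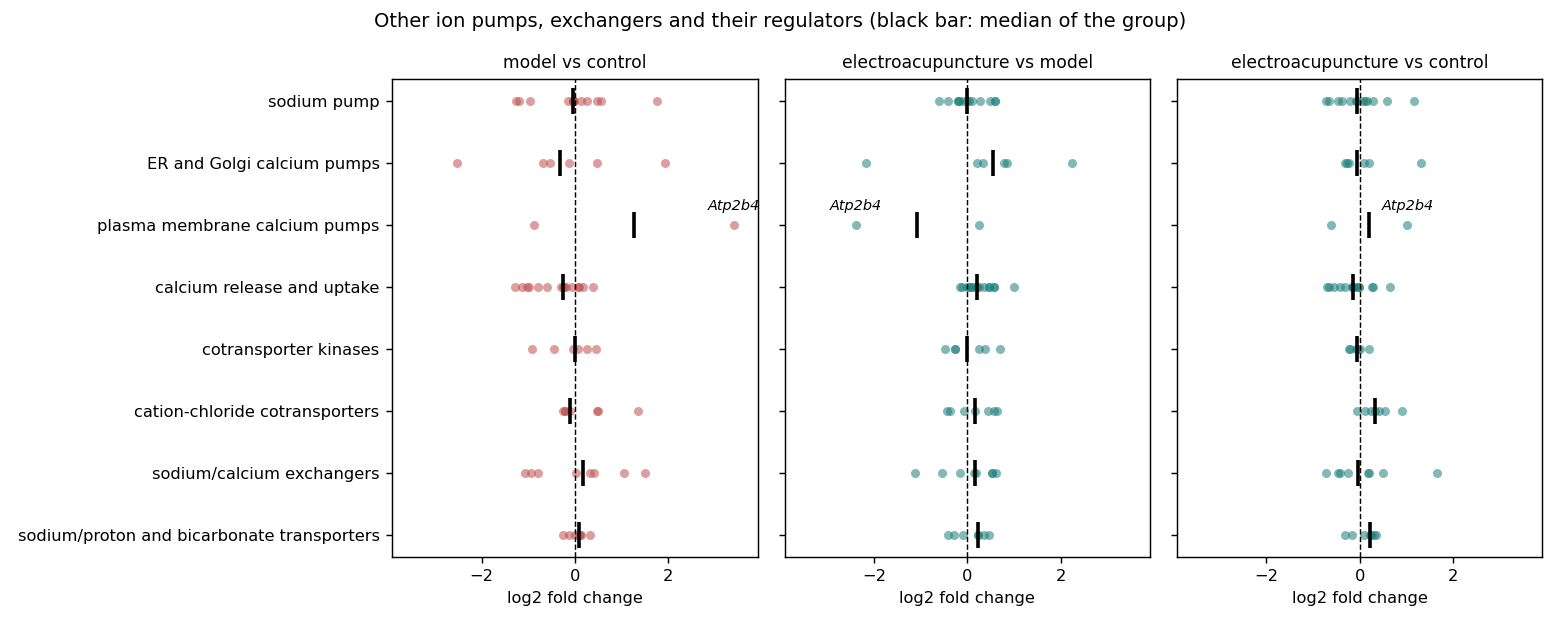
Log2 fold change of each of the 64 other transporter genes from the edgeR fit, by functional group, 1 panel per comparison, with a black bar for the median of the group. Atp2b4 has the highest value in model against control (3.40) and the lowest in electroacupuncture against model (-2.38).

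Atp2b4, which encodes PMCA4 and is the close relative of Atp2b1 and Atp2b2, had the smallest p of the list for model against control and for electroacupuncture against model. It measured 44.2, 45.8 and 18.3 CPM in electroacupuncture A, B and C, 168 and 209 CPM in model samples A and B, and 12.5, 12.2 and 28.8 CPM in controls. Both model samples lay above all 6 other samples, as did the model in 18.2% of tested genes when set against controls. The log2 fold change was 3.40 for model against control (SE 0.50, 95% interval 2.24 to 4.56, edgeR adjusted p = 0.0922) and -2.38 for electroacupuncture against model (SE 0.48, 95% interval -3.50 to -1.25, edgeR adjusted p = 0.140), so neither passed in edgeR. Over the alternatives the adjusted p for model against control ran from 1.14e-08 with DESeq2 to 0.447 without control A. It was under 0.05 with all columns as separate libraries (0.00279), with only the 2 groups in the fit (0.0309), without model A (0.0321), without electroacupuncture A (0.027) and with the column number as a block (0.019), while the log2 fold change stayed between 3.20 and 3.94. For electroacupuncture against model the adjusted p was under 0.05 with DESeq2 (0.000281), with all columns as separate libraries (0.00457) and with the column number as a block (0.0173), and over 0.05 in the other alternatives, up to 0.48 with only the 2 groups in the fit. In both comparisons, the fits on all columns, with or without the block, counted near-identical columns as separate samples and so overstated the number of samples. On average over each list, the hippocampal markers were low and the neocortical markers high in the same 2 model samples. The hippocampal average was low in electroacupuncture A too (-2.22, beside -2.78 and -2.50 in the model). The neocortical average of electroacupuncture B (0.58) stood near that of model A (0.66). Atp2b4 was at 44.2 and 45.8 CPM in electroacupuncture A and B, beside 168 CPM in model A. For model against control, 6 of 7 tested hippocampal markers were lower in estimate and 6 of 9 neocortical markers higher. Against this, Fezf2 (neocortex) measured 37.3 CPM in model A, beside a control mean of 47.9 CPM. Calb1 (hippocampus) measured 157 CPM in model B, beside 103 CPM. The part of these markers in the difference of Atp2b4 was not tested. Atp2b3, the remaining plasma membrane calcium pump, which is typical of neurons, measured 68.5, 227 and 203 CPM with electroacupuncture, 125 and 155 CPM in the model and 266, 247 and 255 CPM in controls. All electroacupuncture and model samples lay below every control (model against control, log2 fold change -0.87, SE 0.45, edgeR adjusted p = 0.427). Over all tested genes the model lay wholly below control in 19.6% and electroacupuncture in 4.88%. Of the 4 plasma membrane calcium pumps, Atp2b4 thus had a log2 fold change of 3.40 for model against control and the other 3 lay between -0.87 and 0.10.

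Among regulators and release channels, Ryr3, a ryanodine receptor that releases stored calcium, measured 88.7, 82 and 62.3 CPM with electroacupuncture, 48.5 and 29.2 CPM in the model and 92.4, 82.2 and 83.2 CPM in controls. The model samples were the 2 lowest (model against control, log2 fold change -1.14, SE 0.25, edgeR adjusted p = 0.156, and electroacupuncture against model 1.0, SE 0.25, adjusted p = 0.177). In 19.6% of tested genes the model lay wholly below control, and in 12.9% wholly below electroacupuncture. Fxyd6, a small modulator of the sodium pump, measured 62.5, 33.3 and 22.4 CPM with electroacupuncture, 67.7 and 51.7 CPM in the model and 12.9, 18.1 and 21.7 CPM in controls. All electroacupuncture and model samples lay above every control, by a log2 fold change of 1.76 in the model (SE 0.42, edgeR adjusted p = 0.172) and 1.2 with electroacupuncture (SE 0.38, edgeR adjusted p = 0.843). The gap was narrow, with electroacupuncture C at 22.4 CPM and control C at 21.7 CPM. Over all tested genes the model lay wholly above control in 18.2% and electroacupuncture in 5.98%.

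Mcu, the pore of the mitochondrial calcium uniporter, measured 22.9, 28.2 and 27.5 CPM with electroacupuncture, 18 and 20.1 CPM in the model and 30.1, 30.2 and 26.4 CPM in controls (model against control, log2 fold change -0.60, SE 0.16, edgeR adjusted p = 0.188). Wnk4, a kinase that regulates the chloride cotransporters, measured 53.8, 36.7 and 48.9 CPM with electroacupuncture, 32.7 and 24.9 CPM in the model and 56.5, 63 and 44.9 CPM in controls. The model samples of both genes lay below all others, at a log2 fold change of -0.93 for Wnk4 (SE 0.24, edgeR adjusted p = 0.182). As above, 19.6% of tested genes lay wholly below control in the model and 12.9% wholly below electroacupuncture. Slc24a5, a potassium-dependent sodium/calcium exchanger best known from pigment cells, measured 6.33, 4 and 7.59 CPM with electroacupuncture, 15.4 and 10.6 CPM in the model and 11.6, 7.84 and 9.89 CPM in controls. Every electroacupuncture sample lay below every other sample, with a log2 fold change of -1.13 against the model (SE 0.33, edgeR adjusted p = 0.221) and -0.72 against control (SE 0.31, edgeR adjusted p = 0.843). Electroacupuncture lay wholly below the model in 11.7% of tested genes and wholly below control in 4.88%. Itpr2, an inositol trisphosphate receptor typical of astrocytes, measured 14.4, 10.5 and 12.1 CPM with electroacupuncture, 9.48 and 8.38 CPM in the model and 7.42, 6.82 and 9.44 CPM in controls. It was higher with electroacupuncture than in all other samples, with a log2 fold change of 0.64 against control (SE 0.22, edgeR adjusted p = 0.843). Electroacupuncture lay wholly above the model in 12.9% of tested genes and wholly above control in 5.98%. Atp2c2, a calcium pump of the secretory pathway, completed the rule for that comparison at 1.56, 0.468 and 1.27 CPM with electroacupuncture against 0.275, 0.455 and 0.55 CPM in controls, near the lower end of what was tested.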

How the data were processed

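The libraries were made from poly(A) RNA with a strand-specific kit, and unique molecular identifiers were part of the adapters, per the labels' protocols, which do not state their use in counting. The authors deposited expected counts (estimated counts per gene, not normalized), of which 70.5% to 72.1% in each column are whole numbers. The tools named in the submitters' processing notes are DESeq2 1.16.1, featureCounts 1.5.0-p3, StringTie 1.3.3b and HISAT2 2.0.5, with neither role nor order. The genome build and the treatment of reads matching several genes were not given in these sources. Reads shared between close relatives may be divided between them.

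Column names gave the group but not the labelled sample. Columns named as sham-operated were taken as the control group, since it is the group without MCAO/R in its labels. The 4 symbols on 2 rows were summed and values were rounded. Columns of a group were summed where their median squared difference was under 2 times the sampling variance, over genes with 20 or more counts in the pair. No label says that samples are separate animals, and a p-value therefore measures the spread between these libraries, which may be technical.

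All 8 samples entered 1 edgeR 4.0.16 fit in R 4.3.3 (TMM, default filter by group, robust quasi-likelihood F test, 5 residual degrees of freedom). The code was also run on simulated counts with less spread than these samples had (common biological coefficient of variation 36.8%). That run does not show how many true changes the fit would find here. Standard errors and 95% intervals were derived from the F statistic. The alternatives were other scalings and filters, DESeq2 1.42.0, other samples in the fit and a block on column number. Profiles and marker levels used log2(CPM + 0.5). Beside the members, the text names from the list of related genes the 5 with the smallest p in each comparison, the 2 nearest profiles of each member and the partners of the ratios. Atp2b3 is named for its role. Some genes of that list are not reported here by name. The members, lists and rules were chosen with earlier results of these data known.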

Additional observations from a re-analysis of the deposited data

How the results depend on the processing

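No member passed under any of the 17 alternatives in any comparison (51 counts of 0), and the lowest adjusted p of a member was 0.0724. Of 357 member fold changes under the alternatives, 337 kept their direction and 20 turned. The number of genes called over the whole table was far less stable. For model against control it was 1, and it was 0 with total counts, 763 with DESeq2, 1129 with all columns as separate libraries, 294 with only the 2 groups, 1333 with model A and electroacupuncture A both left out, and 0 to 565 with 1 sample left out. For electroacupuncture against model it was 0, and 689, 1666 and 1104 with DESeq2, all columns and both samples left out, and 0 to 308 with 1 sample left out. For electroacupuncture against control DESeq2 called 1 gene. Leaving out electroacupuncture A gave 565 genes for model against control and 278 for electroacupuncture against model. Wherever model A or model B was left out, the lone model sample is assumed to vary like the other groups. With all columns as separate libraries, near-identical columns counted as separate samples. The cause of these differences in the number of genes was not tested.

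With 1 sample left out, log2 fold changes of model against control ran from -0.13 to 0.052 for Atp1b2, -0.73 to 0.24 for Atp2a2, -0.86 to 0.66 for Atp2b2 and -0.90 to 0.31 for Slc12a5. For electroacupuncture against model they ran from -0.49 to 0.48 for Atp2a2, -0.23 to 0.43 for Atp2b1, -0.97 to 0.56 for Atp2b2, -0.66 to 0.55 for Slc12a5 and -0.91 to 0.29 for Slc8a1, and for electroacupuncture against control from -0.030 to 0.16 for Atp1b2. The log2 ratio of Slc12a5 to Slc12a2 ran from -0.82 to 0.71 for model against control and from -1.41 to 0.12 for electroacupuncture against model. That of Atp1b2 to Atp1b1 ran from -0.72 to 0.36 for electroacupuncture against model. That of Atp2b2 to Atp2b1 ran from -0.040 to 0.82, -0.76 to 0.10 and -0.049 to 0.14 for model against control, electroacupuncture against model and electroacupuncture against control. Total counts turned Atp1b2 to 0.045 (model against control), and all columns as separate libraries turned Slc8a1 to 0.059 (electroacupuncture against model). Leaving out model A and electroacupuncture A turned Atp2a2 to 0.24 and Slc12a5 to 0.31 (model against control), and Atp2b1 to -0.13 and Slc8a1 to 0.37 (electroacupuncture against model).

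The column numbers are shared between groups but are not tied to animals, and 3 of the 8 samples combine 2 numbers. Of the 10 same-numbered pairs of columns, deviations from the group means correlated over 0.1 in 7, with r from -0.16 to 0.19, and not every column correlated best with one of its own number, so the numbers were not taken to pair samples. With summed columns no such fit was possible, since a sample then has 2 numbers. A fit chosen after seeing the data, with the column number as replicate block and all columns as separate libraries, called 471 genes for model against control and 876 for electroacupuncture against model, and turned Atp2b2 to -0.17 (model against control) and Atp2a2 to 0.041 (electroacupuncture against model). This fit too counted near-identical columns as separate samples.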
